A study of Mus musculus with 12 samples.

Results

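The 37 genes described here mark macrophages and the other white blood cells that a mammary tumour can contain. They were chosen by gene symbol, and where a gene had several probe sets the one of highest average signal stood for it. Of the 37 genes, 36 had a probe set, out of 12393 genes named on the array, and Lck was not analysed here. By cell type, 12 are surface and lysosomal genes of phagocytes, 3 encode complement C1q, 5 encode Fc receptors and their adaptors, 2 encode leukocyte integrins and 5 are shared by most leukocytes. A further 6 mark T cells, of which 5 were measured, 2 mark B cells and 2 encode the calprotectin subunits of neutrophils.

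The study compared 6 arrays of tumours from Hunk knockout mice with 6 arrays of tumours from Hunk wild-type mice. All mice were FVB females that carried the MMTV-c-myc transgene, and they were bred before tumours were watched for and collected at a set size. The MMTV promoter drives the oncogene in mammary epithelium, so the leukocytes in these tumours are host cells rather than the cells targeted by the transgene. Hunk encodes a kinase related to Snf1, and the targeted allele has a neomycin cassette with LoxP sites in place of the putative promoter and exon 1, introduced through E14 embryonic stem cells. Because the deletion is in the germ line, the leukocytes of knockout mice lack the intact gene as well as the tumour cells. The labels number the arrays within a group but do not say that each is a separate mouse, so the p-values set differences against a spread between samples that may in part be technical.

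Macrophages take up dying cells, debris and antibody-coated particles, and in mammary tumours they are usually the most abundant leukocytes. They carry Fc receptors, which bind the constant part of antibodies and signal through adaptor proteins, and they are a main source of C1q, the recognition molecule that starts the classical complement cascade. Many of their genes depend on the ETS-family factor PU.1, which recognises DNA with a GAGGAA core. T and B cells are known by the chains that accompany their antigen receptors, and neutrophils by the calcium-binding proteins that fill their cytoplasm.

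The promoters of 4 members with the larger differences described further on are printed to show the sequences upstream of them, in a window of 300 bases that ends just past the start of the gene. Each is the RefSeq sequence of the GRCm38.p6 build, read 5′ to 3′ on the gene's own strand, and the capitals mark GAGGAA or its reverse complement TTCCTC. The first listed start of each gene was used. The windows are chr4:136886151-136886450 for C1qb, chr4:136892865-136893164 for C1qc, chr19:11336097-11336396 for Ms4a7 and chr1:171059354-171059653 for Fcgr3, all on the minus strand.
C1qb: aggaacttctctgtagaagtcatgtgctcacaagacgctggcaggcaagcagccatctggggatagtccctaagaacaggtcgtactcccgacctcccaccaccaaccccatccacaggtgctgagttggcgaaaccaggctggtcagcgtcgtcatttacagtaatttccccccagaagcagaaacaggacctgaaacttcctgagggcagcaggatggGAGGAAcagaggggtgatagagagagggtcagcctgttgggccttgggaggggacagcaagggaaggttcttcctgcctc
C1qc: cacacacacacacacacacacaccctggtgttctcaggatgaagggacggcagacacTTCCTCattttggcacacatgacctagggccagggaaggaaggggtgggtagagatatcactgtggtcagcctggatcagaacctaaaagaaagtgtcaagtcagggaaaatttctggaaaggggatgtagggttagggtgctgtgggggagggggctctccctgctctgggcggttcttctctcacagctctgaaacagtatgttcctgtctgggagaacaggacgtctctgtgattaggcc
Ms4a7: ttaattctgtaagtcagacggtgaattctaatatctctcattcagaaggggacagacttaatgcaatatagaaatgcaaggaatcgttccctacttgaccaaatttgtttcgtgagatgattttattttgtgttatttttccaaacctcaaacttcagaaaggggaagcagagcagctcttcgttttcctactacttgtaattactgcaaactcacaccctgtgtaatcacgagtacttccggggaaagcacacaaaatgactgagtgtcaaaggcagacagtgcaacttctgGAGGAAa
Fcgr3: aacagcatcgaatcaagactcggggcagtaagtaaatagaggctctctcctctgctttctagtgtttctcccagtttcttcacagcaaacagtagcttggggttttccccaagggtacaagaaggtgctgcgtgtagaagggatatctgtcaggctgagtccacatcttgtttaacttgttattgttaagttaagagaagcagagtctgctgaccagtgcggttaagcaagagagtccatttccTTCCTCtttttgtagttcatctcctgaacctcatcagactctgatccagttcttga
Each window held the core 1 time, forward in C1qb and Ms4a7 and reversed in C1qc and Fcgr3. The same window of Laptm5 also held it 1 time, and that of Fcer1g held it 0 times. Of the 28 members with a listed promoter, 18 held the core on either strand (64.3%), and so did 7652 of 27025 genes in the whole table (28.3%). Among the macrophage members alone it was 9 of 14 (64.3%), so the share was no higher in them than in all members together. A match is a description of letters and does not show that the factor binds there.

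Across the arrays, background was taken as the highest of 12 Bacillus control probe sets, which no mouse transcript matches. It lay between 3.60 and 4.00 on knockout arrays and between 3.45 and 3.75 on wild-type arrays, on the log2 scale used throughout. Knockout array 3 had the highest background and wild-type array 5 the lowest. The 3′ minus 5′ signal of beta-actin, a measure of how far the labelled RNA reached, averaged 1.51 ± 0.15 in knockout and 1.29 ± 0.05 in wild type (SD, n = 6 each). Knockout arrays 4 and 5 were the most alike of all pairs, with a standard deviation of their difference over probe sets of 0.259, against 0.412 for the next closest pair. Hunk, which checks the labels, averaged 2.95 ± 0.17 in knockout and 4.21 ± 1.05 in wild type (SD, n = 6 each), and was above background on 0 of 6 knockout and 4 of 6 wild-type arrays. In knockout it was lower by at least 1.41-fold, with an exact two-sided permutation p of 0.0108 and a limma adjusted p of 0.181 over all genes. The luminal keratin Krt18, a defining marker of the labelled tissue, ranged from 11.31 to 13.14 on knockout arrays and from 11.29 to 12.93 on wild-type arrays.

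Macrophage genes such as Lyz2, C1qa, C1qb, Cd14 and Mpeg1 gave signals well above background on every array. In knockout tumours the 3 C1q genes, Ms4a7, Fcgr3 and Laptm5 had means lower by 0.52 to 1.03, and Cd14 had a mean higher by 1.24. None of these differences passed the threshold of 0.05 after adjustment over all genes. Other macrophage genes did not follow them: the general markers Csf1r, Adgre1 and Cd68 had changes between -0.08 and -0.02. The median change of the 11 phagocyte surface and lysosomal genes tested was -0.05. Markers of T and B cells were at or near background in both genotypes, and the neutrophil gene S100a8 was bright on a few arrays of each genotype. The other neutrophil gene, S100a9, had a highest signal of 5.22 on knockout arrays. On wild-type arrays its highest signal was 8.66, with the next at 5.32.

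Of the 36 members measured, 24 were above background on all 12 arrays, 4 on some arrays and 8 on none. The 8 at background throughout were Cd163, Fcgr1, Itgam, Itgax, Cd3g, Cd8a, Cd79a and Cd79b. In 9 members the whole range over the 12 arrays was under 0.5, and 7 of these were among the 8 at background. The other two, Aif1 and Cd3e, lay above the background controls but stayed within the same narrow range.

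**Figure D1:**
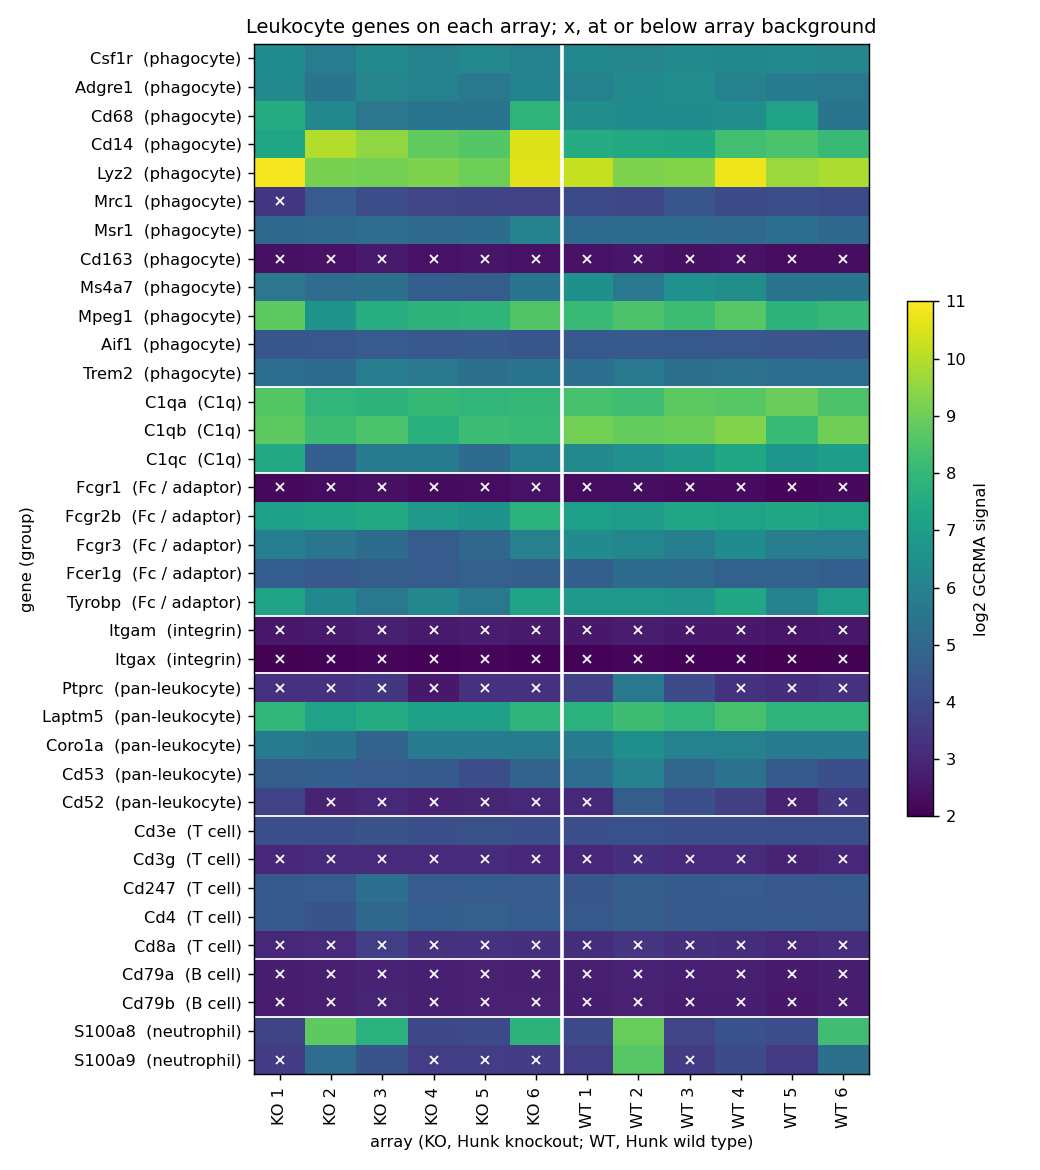
The log2 GCRMA signal of the 36 measured genes (rows, by cell type) is shown by colour on 6 knockout and 6 wild-type arrays (columns), with a cross where a value is at or below the array's background. Crosses fill the rows of all B-cell and integrin genes, and Cd14 is bright on 5 of 6 knockout arrays.

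The comparison of genotypes was made with limma over the 6825 genes whose mean exceeded 3.98, the median probe-set mean, and 26 members entered it. At an adjusted p under 0.05, 0 of the 26 members were lower in knockout, where 1.68% of all genes tested were, and 0 were higher, where 1.66% of all genes tested were. Those shares stand for 115 genes lower and 113 higher, and with each array centred on its median the counts were 126 lower and 68 higher. At an unadjusted p under 0.05, 7 members were lower in knockout and 1 was higher. Among all genes tested these shares were 10.5% lower and 8.97% higher. The 7 are 26.9% of the members tested. When limma instead weighted each array by its estimated quality, 191 genes passed the adjusted threshold as lower in knockout. Among them were 6 members: C1qa, C1qb, C1qc, Fcgr3, Laptm5 and Ms4a7. The weights were estimated from these same arrays, so these 6 calls add no separate evidence. With knockout arrays 4 and 5, the most alike of all pairs, averaged into 1 sample, 0 members passed as lower.

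The median log2 change of the 26 members was -0.17, and that of all genes tested was 0.01. The change was negative in 18 of 26 members (69.2%), against 49.2% of all genes tested. In 0 members did the groups of arrays not overlap, where 1.44% of all genes tested were lower in knockout without overlap and 1.71% higher. Over all 36 measured members, with no filter on level, the median was -0.04, and over all 12393 genes it was 0.04. In bulk tumour RNA, fewer cells of a type and less RNA per cell cannot be told apart.

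**Figure D2:**
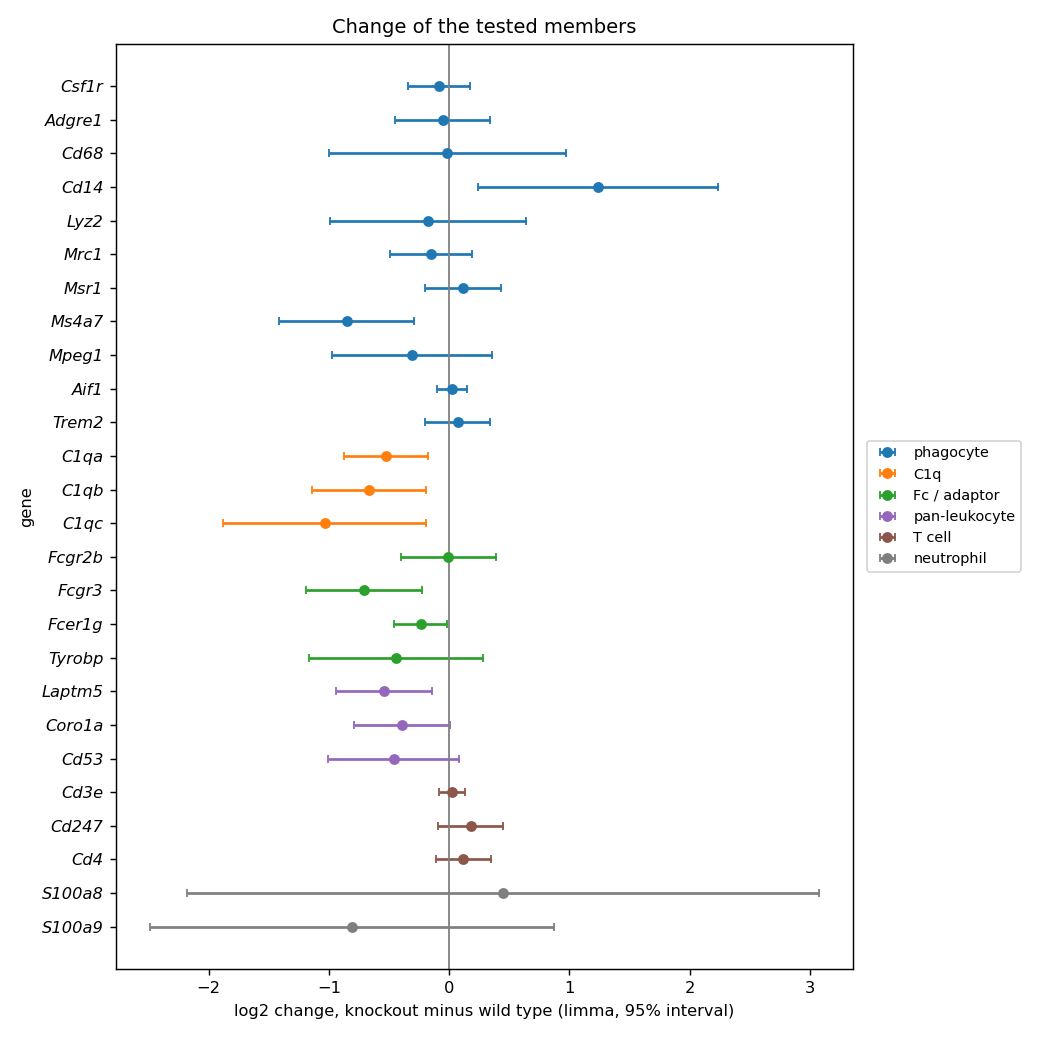
The log2 change of each of the 26 tested genes, knockout minus wild type, is plotted on the horizontal axis as a point with its 95% limma interval, coloured by cell type. The intervals of the 3 C1q genes, Ms4a7, Fcgr3, Fcer1g and Laptm5 lie below 0 and that of Cd14 lies above 0, before adjustment for the number of genes.

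Complement C1q is assembled from the A, B and C chains, encoded by C1qa, C1qb and C1qc. All 3 genes had lower means in knockout tumours, by 0.52 to 1.03, and all 3 had an unadjusted p under 0.05. The median of the 3 changes was -0.66.

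C1qa (probe set 1417381_at) had a lowest, median and highest signal of 7.83, 7.96 and 8.61 on knockout arrays, against 8.23, 8.57 and 8.94 on wild-type arrays. Knockout array 1 was the highest of its group, with the next at 8.01, and lay inside the wild-type range, while the other 5 knockout arrays lay below every wild-type array. Its log2 change was -0.52 (SE 0.16), with a limma adjusted p of 0.0986.

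C1qb (1437726_x_at) had 7.72, 8.18 and 8.76 on knockout arrays, against 8.06, 9.01 and 9.28 on wild-type arrays. All 6 knockout arrays lay below the wild-type median, and the groups overlapped through wild-type array 5, at 8.06, whose nearest neighbour in its group was at 8.88. The change was -0.66 (SE 0.22, limma adjusted p 0.123), and the other probe sets of the gene gave -0.51 and -0.69.

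C1qc (1449401_at) had 4.68, 5.74 and 7.50 on knockout arrays, against 6.25, 6.81 and 7.39 on wild-type arrays. Knockout array 1, at 7.50, was the highest of all 12, and the other 5 knockout arrays lay below every wild-type array. The change was -1.03 (SE 0.39), a 2.05-fold lower level, with a limma adjusted p of 0.164.

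Summed on the linear scale, where probe sets of high signal weigh most, the 3 C1q genes reached 522, 571 and 1007 on knockout arrays (lowest, median and highest), against 864, 989 and 1193 on wild-type arrays. The knockout sum of 1007 belonged to array 1, and the next highest knockout array was at 629. Each array was also left out in turn. Without knockout array 1 the change was -0.64 for C1qa (limma adjusted p 0.0317) and -1.38 for C1qc (limma adjusted p 0.0186). Without wild-type array 5 the change of C1qb was -0.83, with a limma adjusted p of 0.037. The array left out was in each case the one most against the difference, so these lower p-values add no evidence. Over the fits without 1 array, the limma adjusted p reached 0.187 for C1qa, 0.226 for C1qb and 0.291 for C1qc.

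Knockout array 1 also differed from its group in the beta-actin measure. It had a 3′ minus 5′ difference of 1.26, inside the wild-type range of 1.21 to 1.34, and the other knockout arrays had 1.50 to 1.72. With that measure as a covariate, the change was -0.17 for C1qa, -0.37 for C1qb and 0.02 for C1qc. The covariate separates the genotypes except for that array, so the difference in RNA reach and the difference in genotype can hardly be told apart here.

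The 3 C1q genes were also compared with each other over the 12 arrays, among 8 pairs whose products act together. C1qa and C1qc had a Pearson r of 0.83 (permutation p 0.00129, adjusted over the 8 pairs 0.00344) and a Spearman rho of 0.81 (permutation p 0.00235, adjusted 0.0094). Without knockout array 3 and wild-type array 5 the r was 0.91. Within genotypes it was 0.87 in knockout and 0.41 in wild type. C1qb and C1qc had an r of 0.66 (adjusted permutation p 0.0341) and a rho of 0.60 (adjusted 0.0667), and without knockout array 4 and wild-type array 4 the r was 0.60. Within genotypes that pair had an r of 0.59 in knockout and 0.26 in wild type. C1qa and C1qb had an r of 0.49 (adjusted permutation p 0.144) and a rho of 0.41 (adjusted 0.222), and an r of 0.84 without knockout array 3 and wild-type array 5. Within genotypes their r was 0.58 in knockout and -0.56 in wild type.

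Among the phagocyte surface and lysosomal genes, 11 of 12 were tested, with a median change of -0.05. Unadjusted, 1 of the 11 was lower (Ms4a7) and 1 higher (Cd14), about the shares among all genes tested, 10.5% lower and 8.97% higher. The general macrophage markers Csf1r, Adgre1 and Cd68 had changes between -0.08 and -0.02.

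Ms4a7 (1424754_at), a membrane protein of the CD20-related family found on macrophages, had 4.67, 5.26 and 5.58 on knockout arrays, against 5.45, 6.03 and 6.54 on wild-type arrays. All 6 knockout arrays lay below the wild-type median. Wild-type arrays 2, 5 and 6 lay near the top of the knockout range, and arrays 1, 3 and 4 stood well above every knockout array. The change was -0.85 (SE 0.26), a 1.81-fold lower level, and its limma adjusted p of 0.0943 was the smallest of any member. With the beta-actin covariate it was -0.60.

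Cd14 (1417268_at), the co-receptor that hands bacterial lipopolysaccharide to Toll-like receptor 4, had 7.28, 9.16 and 10.54 on knockout arrays, against 7.40, 7.84 and 8.45 on wild-type arrays. Knockout array 1 was the lowest of all 12 and the other 5 knockout arrays lay above every wild-type array. The change was 1.24 (SE 0.46), a 2.36-fold higher level, with a limma adjusted p of 0.159. Without knockout array 1, the array most against the difference, it was 1.61 with a limma adjusted p of 0.0333. Over the fits without 1 array, the limma adjusted p reached 0.259. With the beta-actin covariate over all arrays the change was 0.34. Cd14 is also made by epithelial cells, and no cell of origin can be read from bulk RNA.

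**Figure D3:**
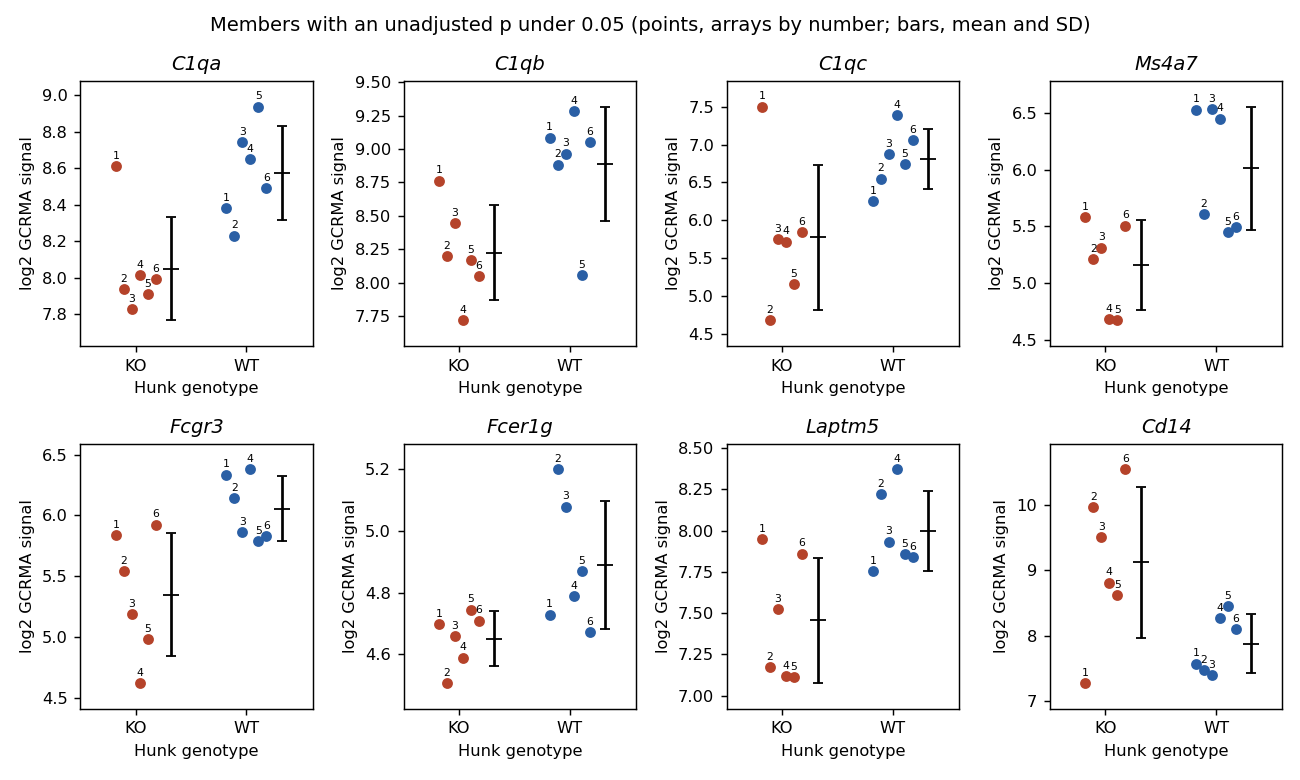
Each point is 1 array, numbered within its genotype, for the 8 genes with an unadjusted p under 0.05, on the log2 scale and with the bars at the mean and SD of 6 arrays. Knockout array 1 lies above the rest of its group in C1qa and C1qc and below it in Cd14.

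The receptor for colony-stimulating factor 1, Csf1r, on which macrophage survival depends, had 5.76, 6.14 and 6.38 on knockout arrays, against 6.11, 6.19 and 6.27 on wild-type arrays. The groups overlapped fully, with a change of -0.08 and a 95% interval of -0.34 to 0.17. Other probe sets of Csf1r were at background on most or all arrays and gave -0.04 and 0.05. Adgre1, which encodes the F4/80 antigen, had 5.49, 6.02 and 6.29 on knockout arrays, against 5.59, 5.95 and 6.40 on wild-type arrays. Its change was -0.05 (95% interval -0.45 to 0.34), again with full overlap.

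Cd68, a lysosomal membrane protein, had 5.46, 5.89 and 7.87 on knockout arrays, against 5.46, 6.39 and 7.17 on wild-type arrays. Knockout arrays 1 and 6 stood at 7.56 and 7.87 and the others at 6.21 or lower. The change was -0.02 (SE 0.45, limma adjusted p 0.984). The lysozyme gene Lyz2 had 9.01, 9.22 and 10.86 on knockout arrays, against 9.25, 9.77 and 10.76 on wild-type arrays. Knockout arrays 1 and 6 were again the highest of their group, at 10.86 and 10.58. Its change was -0.18, with a limma adjusted p of 0.809.

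Mpeg1, which encodes a pore-forming protein of phagosomes, had 6.67, 7.87 and 8.76 on knockout arrays, against 7.83, 8.13 and 8.65 on wild-type arrays. Knockout array 1 was the highest of the 12 and knockout array 2 the lowest, and the change was -0.31 (limma adjusted p 0.588). The scavenger receptor Msr1 had 5.02, 5.14 and 5.95 on knockout arrays, against 5.03, 5.14 and 5.29 on wild-type arrays. The value of 5.95 was on knockout array 6, the next highest knockout array was at 5.21, and the change was 0.11 (limma adjusted p 0.682).

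Trem2, a lipid-sensing receptor that signals through the adaptor Tyrobp, had 5.13, 5.39 and 5.79 on knockout arrays, against 5.25, 5.30 and 5.65 on wild-type arrays. The groups overlapped and the change was 0.07 (limma adjusted p 0.766). Its other probe set was at background on all arrays, with a change of -0.08. Mrc1, the mannose receptor, was close to background, with 3.46, 3.86 and 4.58 on knockout arrays, against 3.94, 4.04 and 4.41 on wild-type arrays, and a change of -0.15 (limma adjusted p 0.598). Aif1, an actin-binding protein of macrophages, ranged from 4.42 to 4.59 on knockout arrays and from 4.36 to 4.53 on wild-type arrays, a range too narrow to carry a difference. The haemoglobin scavenger receptor Cd163 was at background throughout, at 2.39 to 2.66 on knockout arrays and 2.30 to 2.56 on wild-type arrays.

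Of the Fc receptors and adaptors, 4 of 5 were tested, all with a negative change and with a median of -0.34. Fcgr3 and Fcer1g, which encode a low-affinity IgG receptor and the gamma chain through which it signals, had an unadjusted p under 0.05.

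Fcgr3 (1448620_at) had 4.62, 5.36 and 5.92 on knockout arrays, against 5.79, 6.00 and 6.38 on wild-type arrays. All 6 knockout arrays lay below the wild-type median, and knockout arrays 1 and 6 reached into the wild-type range. The change was -0.71 (SE 0.22), a 1.63-fold lower level, with a limma adjusted p of 0.109, and it was -0.36 with the beta-actin covariate. Fcer1g had 4.51, 4.68 and 4.75 on knockout arrays, against 4.67, 4.83 and 5.20 on wild-type arrays. Wild-type arrays 2 and 3 stood above the rest and the remainder overlapped, with a change of -0.24 (SE 0.10, limma adjusted p 0.213).

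Tyrobp, the adaptor also called DAP12, had 5.61, 6.18 and 7.27 on knockout arrays, against 6.00, 6.85 and 7.41 on wild-type arrays. Knockout arrays 1 and 6, at 7.27 and 7.26, were within the upper part of the wild-type range, and the change was -0.44 (SE 0.33, limma adjusted p 0.467). Fcgr2b, the inhibitory IgG receptor, had 6.62, 7.17 and 7.77 on knockout arrays, against 6.96, 7.20 and 7.38 on wild-type arrays. The change of that probe set was -0.01 (limma adjusted p 0.985), and its 3 other probe sets gave -0.61, -0.06 and -0.24. The probe sets of this gene therefore disagree in size, and the one with -0.61 had a limma adjusted p of 0.164 over all probe sets. The high-affinity receptor Fcgr1 was at background throughout, at 2.24 to 2.44 on knockout arrays and 2.16 to 2.33 on wild-type arrays.

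Among the 8 pairs, Fcer1g and Fcgr3 had an r of 0.44 (adjusted permutation p 0.165) and a rho of 0.56 (adjusted 0.0838), and an r of 0.44 without wild-type arrays 2 and 3. Tyrobp and Trem2 had an r of -0.25 (adjusted permutation p 0.437) and a rho of -0.27 (adjusted 0.391), and an r of 0.06 without knockout arrays 3 and 5. Neither relation was detectable over these arrays.

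The integrins Itgam and Itgax, the alpha chains of the complement receptors of myeloid cells and dendritic cells, were at background on every array. Itgam ranged from 2.58 to 2.78 on knockout arrays and from 2.50 to 2.72 on wild-type arrays. Itgax ranged from 2.04 to 2.15 on knockout arrays and from 2.02 to 2.14 on wild-type arrays. No fold is given for either gene.

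The genes shared by most leukocytes had lower means in knockout tumours, and Laptm5 was the 1 of 3 tested with an unadjusted p under 0.05. The median change of the 3 tested was -0.46. Summed on the linear scale, the 5 genes reached 226, 244 and 347 on knockout arrays, against 319, 349 and 527 on wild-type arrays. Laptm5, by far the brightest of the 5, weighed most in that sum. The value of 527 was on wild-type array 2.

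Laptm5 (1436905_x_at), a lysosomal protein that limits antigen-receptor levels in lymphocytes, had 7.11, 7.35 and 7.95 on knockout arrays, against 7.76, 7.90 and 8.37 on wild-type arrays. Knockout arrays 1 and 6 lay within the wild-type range and the other 4 below it. The change was -0.54 (SE 0.18), a 1.45-fold lower level, with a limma adjusted p of 0.134, and it was -0.24 with the beta-actin covariate. Its 2 other probe sets were at background on all arrays, with changes of -0.08 and -0.02, and the mean of all its probe sets gave -0.21.

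Ptprc, which encodes the pan-leukocyte phosphatase CD45, was at background on all 6 knockout arrays, at 2.60, 3.28 and 3.41, against 3.18, 3.50 and 5.63 on wild-type arrays. It was above background on wild-type arrays 1, 2 and 3, the highest being array 2. In knockout it was lower by at least 1.11-fold, and the fit over all genes gave a limma adjusted p of 0.468. That bound rested on wild-type array 2: without it the wild-type mean was 3.51, below the knockout background mean of 3.71, and no fold can be given. Cd53, a tetraspanin of leukocytes, had 4.17, 4.62 and 4.86 on knockout arrays, against 4.19, 5.09 and 5.98 on wild-type arrays. The highest value was again on wild-type array 2, and the change was -0.46 (SE 0.25, limma adjusted p 0.324).

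Coro1a, an actin regulator of leukocytes, had 4.85, 5.66 and 5.70 on knockout arrays, against 5.66, 5.81 and 6.49 on wild-type arrays. Knockout array 3 lay lowest and wild-type array 2 highest, and the change was -0.39 (SE 0.18, limma adjusted p 0.27), with -0.16 and 0.15 for its other probe sets. Cd52, a small surface glycoprotein of lymphocytes and other leukocytes, had 2.91, 2.97 and 3.85 on knockout arrays, against 2.87, 3.57 and 4.66 on wild-type arrays. It was above background on 1 knockout array and 3 wild-type arrays, so no size of change is given. Without wild-type array 2 the changes were -0.27 for both Cd53 and Coro1a.

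Genes of T and B cells gave little signal in either genotype. Of the 5 T-cell genes measured, Cd3g and Cd8a were at background on all arrays and Cd3e was nearly constant. Cd3e, an invariant chain of the T-cell receptor complex, ranged from 4.19 to 4.32 on knockout arrays and from 4.15 to 4.27 on wild-type arrays. Cd247, the zeta chain of that complex, had 4.53, 4.60 and 5.29 on knockout arrays, against 4.40, 4.53 and 4.67 on wild-type arrays. The co-receptor Cd4 had 4.32, 4.64 and 5.01 on knockout arrays, against 4.46, 4.52 and 4.65 on wild-type arrays. All other probe sets of Cd247 and Cd4 were at background on every array.

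The highest value of Cd3e, Cd247, Cd4 and Cd8a was in each case on knockout array 3, which had the highest background of the 12, and the part of background in these values was not tested. The changes were 0.02 for Cd3e, 0.18 for Cd247 and 0.12 for Cd4, with limma adjusted p-values of 0.826, 0.429 and 0.539. Cd3g ranged from 3.04 to 3.12 on knockout arrays and from 2.85 to 3.21 on wild-type arrays. Cd8a ranged from 3.03 to 3.66 on knockout arrays and from 3.04 to 3.40 on wild-type arrays.

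Cd79a and Cd79b, which form the signalling part of the B-cell receptor, were at background on all 12 arrays. Cd79a ranged from 2.75 to 2.91 on knockout arrays and from 2.66 to 2.89 on wild-type arrays. Cd79b ranged from 2.72 to 2.93 on knockout arrays and from 2.63 to 2.84 on wild-type arrays. Their values still followed each other closely, with an r of 0.96 (permutation p 1e-05, the smallest that the permutations can give, adjusted 8e-05) and a rho of 0.92 (adjusted 0.00032), and an r of 0.89 without knockout array 3 and wild-type array 5. Cd3e and Cd3g had an r of 0.71 (adjusted permutation p 0.0341) and a rho of 0.72 (adjusted 0.0218), and an r of 0.83 without knockout array 3 and wild-type array 2. A correlation between genes that were at background or flat thus occurred in these arrays. Of the 8 members at background throughout, 6 were highest on knockout array 3 and 7 were lowest on wild-type array 5, the arrays of highest and lowest background.

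S100a8 and S100a9 encode the subunits of calprotectin, which is abundant in neutrophils and can also be made by epithelium. S100a8 was bright on 5 arrays, 3 knockout and 2 wild type, and near background on the other 7. It had 3.85, 5.86 and 8.78 on knockout arrays, against 3.89, 4.20 and 8.91 on wild-type arrays. The bright arrays were knockout 2, 3 and 6 and wild-type 2 and 6, and the change was 0.45 with a 95% interval of -2.18 to 3.08.

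S100a9 had 3.60, 3.62 and 5.22 on knockout arrays, against 3.54, 3.86 and 8.66 on wild-type arrays. It was above background on 2 knockout and 5 wild-type arrays, with wild-type array 2 far above the rest. The change was -0.81 (SE 0.78, limma adjusted p 0.574), and it was -0.04 without wild-type array 2. On knockout array 6, S100a8 was at 7.82 and S100a9 at 3.61, at background. Because the arrays fell into separate clusters, no correlation over all of them is given for this pair, and the 5 bright arrays are too few for one of their own.

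**Figure D4:**
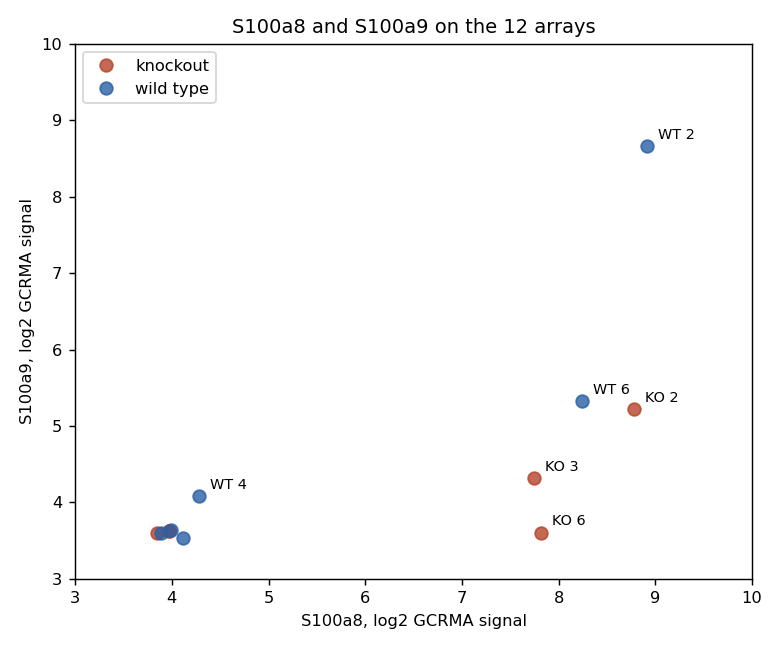
S100a9 is plotted against S100a8 for the 12 arrays, both as log2 GCRMA signal, with knockout and wild-type arrays in different colours. The 5 arrays with bright S100a8 stand to the right, and wild-type array 2 is the one with S100a9 as high as 8.66.

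Array by array, members were highest on different arrays, also where they mark the same cell type. Of the 26 members that were above background somewhere and not flat, 7 were highest on wild-type array 2, namely Ptprc, Cd53, Coro1a, Cd52, Fcer1g, S100a8 and S100a9. Another 4 were highest on wild-type array 4, namely C1qb, Fcgr3, Tyrobp and Laptm5. Knockout array 1 was highest for Csf1r, Lyz2, Mpeg1 and C1qc, and lowest for Cd14, Mrc1, Msr1 and S100a8. Knockout array 6 was highest for Cd68, Cd14, Msr1 and Fcgr2b. Knockout arrays 4 and 5 were highest for 0 members and lowest for 3 and 5.

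Summed on the linear scale, the 20 macrophage genes reached 2237, 2822 and 4996 on knockout arrays, against 2772, 3095 and 4499 on wild-type arrays. The highest knockout sums were on arrays 1 and 6, at 4344 and 4996, and the other 4 knockout arrays were at 2871 or lower. The brightest genes weighed most in these sums, Lyz2 on knockout array 1 (10.86) and Lyz2 and Cd14 on knockout array 6 (10.58 and 10.54). Cd14 is not confined to macrophages. With knockout arrays 4 and 5 counted as 1 sample, the changes were -0.51 for C1qa, -0.61 for C1qb, -0.97 for C1qc, -0.76 for Ms4a7 and 1.32 for Cd14.

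**Figure D5:**
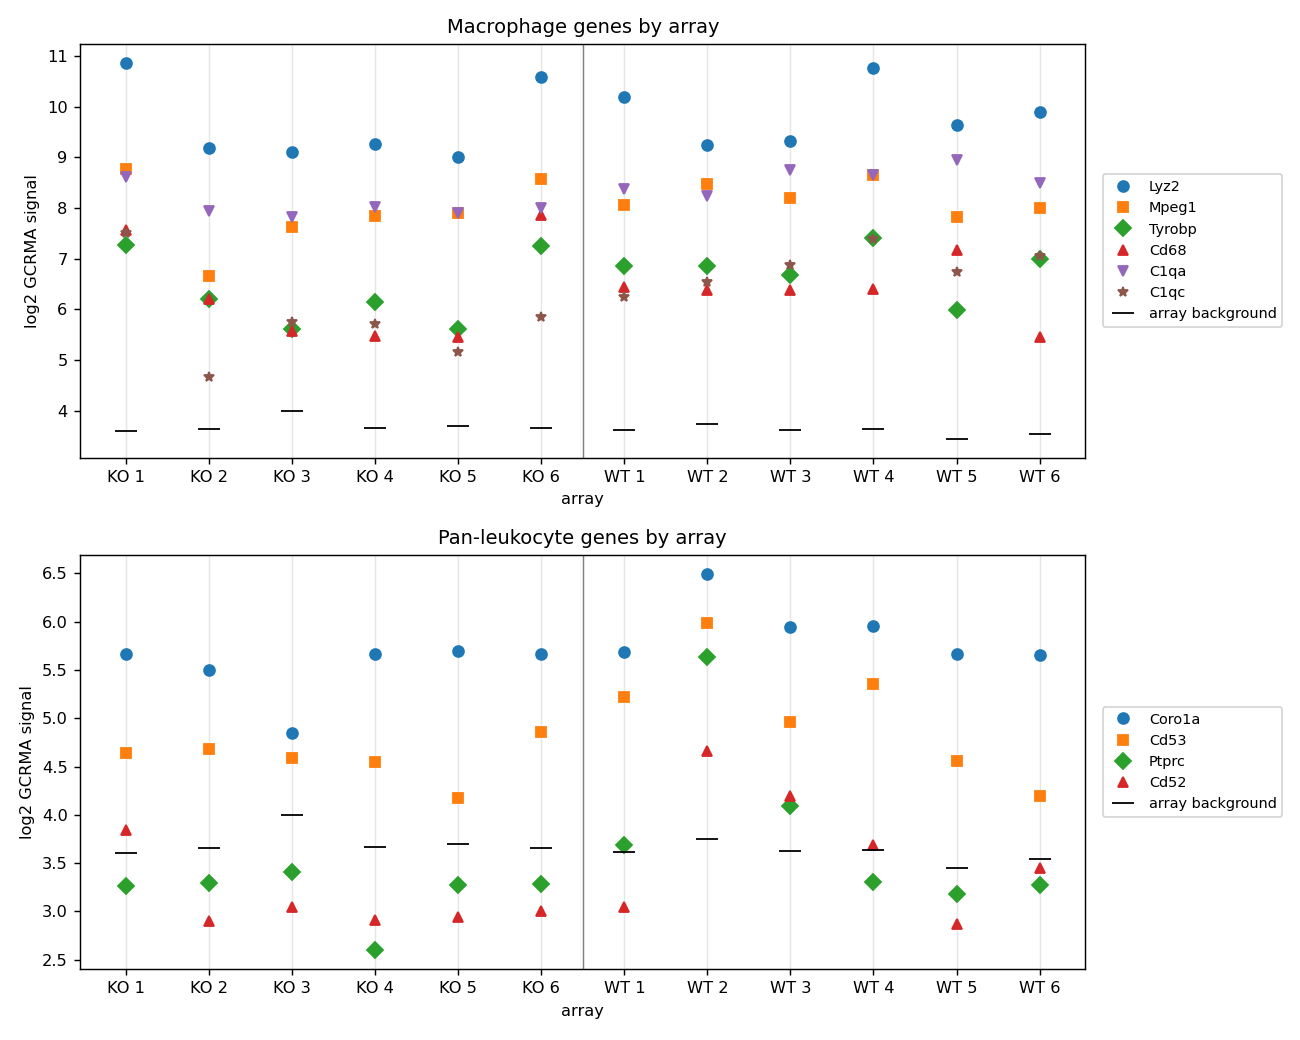
Log2 GCRMA signals of 6 macrophage genes (upper panel) and 4 pan-leukocyte genes (lower panel) are plotted for each of 6 knockout and 6 wild-type arrays, with a short line at each array's background. Lyz2, Cd68, Mpeg1 and Tyrobp are high on knockout arrays 1 and 6, and the 4 pan-leukocyte genes shown are highest on wild-type array 2. Laptm5, of the same group, is not plotted and was highest on wild-type array 4, at 8.37 against 8.22 on wild-type array 2.

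Further genes of the same cells were counted from separate lists, and where none passed, the gene of highest mean signal is named, although signals of different probe sets are not comparable as levels. Of 31 other macrophage genes measured, 13 were tested, 0 passed in either direction, and 13 were at background on all arrays. The median change of those tested was 0.01, with 7 positive and 6 negative. Unadjusted, 1 gene of the 13 was higher in knockout and 1 lower, where 8.97% of all genes tested were higher and 10.5% lower. The 1 higher was Tlr4, the lipopolysaccharide receptor (0.51), and the 1 lower the lysosomal protease Lgmn (-0.47), both named after their values were seen. The gene of highest mean, Apoe, a lipid carrier made by macrophages and other cells, ranged from 8.64 to 11.12 on knockout arrays and from 9.20 to 10.91 on wild-type arrays. Its change was -0.39 (limma adjusted p 0.57). Of 20 other pan-leukocyte genes, 4 were tested and 0 passed, and the actin bundler Lcp1 had a change of -0.54 (limma adjusted p 0.393). The other 3 tested were positive, and the median of the 4 changes was 0.10. All 16 further genes of T and natural killer cells were at background, such as the co-stimulatory receptor Cd28 at 3.23 to 3.64 on knockout arrays and 3.09 to 3.43 on wild-type arrays.

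Of 6 other B-cell and plasma-cell genes, 1 was tested, Ms4a1, which encodes CD20, with a change of 0.28 (limma adjusted p 0.268). Of 9 other neutrophil genes, 2 were tested and 0 passed, and the protease Mmp9 had a change of 0.16 (limma adjusted p 0.569). All 7 mast-cell genes and both red-cell genes measured were at background, Hdc and Hba-a1 among them. Of 7 genes for factors that feed or attract macrophages, 1 was tested, the chemokine Cx3cl1, with a change of 0.45 (limma adjusted p 0.402).

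Of 4 genes of class II antigen presentation, 3 were tested and 0 passed. The invariant chain Cd74 had 5.01, 6.27 and 7.26 on knockout arrays, against 6.29, 7.32 and 7.90 on wild-type arrays. The groups overlapped, and its change was -0.94 (SE 0.37, limma adjusted p 0.178).

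Other components of the tumour were measured on the same arrays. Of 7 luminal epithelial genes, 2 were higher in knockout after adjustment and 0 lower, where 1.66% of all genes tested were higher and 1.68% lower. The 2 were the keratin Krt19, by 4.08 (limma adjusted p 0.042), and the glycoprotein Cd24a, by 0.87 (limma adjusted p 0.024). In both, the groups overlapped. Krt19 ranged from 8.22 to 12.51 on knockout arrays and from 3.30 to 9.13 on wild-type arrays. Its value on wild-type array 5 was at background, so the size of its change is uncertain. Of 9 fibroblast genes, 6 were tested and 0 passed, with a median change of 0.64, and the collagen gene Col3a1 had a change of 0.94 (limma adjusted p 0.0691). The matrix protein gene Fbln2, named after its values were seen, was the only one of the 6 with a negative change, at -1.79 (limma adjusted p 0.172). The summed linear level of the 9 fibroblast genes was 2239, 3998 and 6223 on knockout arrays, against 1787, 2621 and 3864 on wild-type arrays. Of 6 adipocyte genes, 3 were tested and 0 passed, with a summed level of 182, 726 and 3624 on knockout arrays, against 76.1, 259 and 1128 on wild-type arrays, and the fatty acid carrier Fabp4 had a change of 1.51 (limma adjusted p 0.222). Of 8 endothelial genes, 1 was tested, Emcn, with a change of -0.03 (limma adjusted p 0.915). The part of these components in the lower C1q, Ms4a7 and Fcgr3 means of knockout tumours was not tested.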

How the data were processed

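RNA of mammary tumours was hybridised to 12 Affymetrix arrays. The authors deposited log2 signals processed with GCRMA, per the submitters' processing notes, as a table of 22690 probe sets that was used as deposited. GCRMA draws low signals toward a floor, which compresses differences near background. Probe sets were named through the platform annotation (20393 had 1 symbol, 691 several, 1606 none listed), with symbols updated through a RefSeq table of GRCm38.p6. Control probe sets were left out. Testing used genes whose mean exceeded the median over probe sets, with limma 3.58.1 (lmFit, eBayes with trend) in R 4.3.3 and Benjamini-Hochberg adjustment, genotype being the only term. Members below that filter, and Hunk, take their values from the fit over all genes. The steps were tested on simulated data. Correlations used 100000 permutations.

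The members and lists were chosen with earlier results of these data known. Named genes were every measured member, Hunk, and of each other list the members past the threshold or else the one of highest mean. Krt18, a check of the tissue, and Tlr4, Lgmn and Fbln2, chosen after their values were seen, fall outside that rule. Alternatives changed the filter, normalization, weights, variance model, covariates, gene summary and arrays. Replicate numbers were not used as pairs in the main comparison, since the labels state no pairing. The sources used here give no scan date, so no batch was tested. Figures were drawn with matplotlib 3.10.9.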

Additional observations from a re-analysis of the deposited data

Results flagged for a closer look

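In 12 of 55 groups of 6 arrays examined for the members, 1 array lay far from the others by Dixon's test, where chance gives about 1 in 20. That is 21.8% of the groups, and the same count over all genes on these arrays was 2391 of 15727 groups, or 15.2%. The members share the arrays, so their counts are not independent. Among knockout arrays, array 1 was far above its group in C1qa (8.61, the next at 8.01) and Cd52 (3.85, the next at 3.05). Knockout array 3 was high in Cd247 (5.29, the next at 4.64) and in the flat Cd3e (4.32, the next at 4.22), and low in Coro1a (4.85, the next at 5.50). Knockout array 6 was high in Msr1 (5.95, the next at 5.21).

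Among wild-type arrays, array 2 was the high one in 5 genes. It had 5.63 for Ptprc (the next at 4.10), 6.49 for Coro1a (the next at 5.95), 8.66 for S100a9 (the next at 5.32), 5.65 for Trem2 (the next at 5.36) and 4.65 for Cd4 (the next at 4.53). Wild-type array 5 was low in C1qb, at 8.06, with the next at 8.88. The cause was not tested for any of these arrays.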

How the results depend on the processing

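Against 113 genes higher and 115 lower in knockout, the counts were 55 and 57 with no filter, 68 and 126 with median centring, 199 and 191 with array weights, 28 and 41 with the replicate block, 47 and 25 with the beta-actin covariate, and 60 and 65 with knockout arrays 4 and 5 averaged. Leaving out each array gave 44 to 102 higher and 51 to 122 lower. Of the members, 6 were lower with array weights (C1qa -0.61, C1qb -0.84, C1qc -1.36, Fcgr3 -0.81, Laptm5 -0.67, Ms4a7 -1.10), which were estimated from these same arrays. With knockout arrays 4 and 5 averaged, 0 members were higher and 0 lower. Without 1 array, 0 to 1 members were higher and 0 to 2 lower (Cd14, C1qa and C1qc without knockout array 1, C1qb without wild-type array 5). The median change of members was -0.035 with no filter, -0.38 above the upper quartile, and -0.28 to -0.09 without 1 array. The sign turned with the beta-actin covariate in Adgre1 (0.073), Cd68 (0.79), Lyz2 (0.86), Mpeg1 (0.34), Aif1 (-0.046), Trem2 (-0.12), C1qc (0.016), Tyrobp (0.52), Cd3e (-0.031), Cd247 (-0.10), Cd4 (-0.10) and S100a8 (-1.14). It turned with quantile normalization in Adgre1 (0.00036), Cd68 (0.019), Aif1 (-0.015), Fcgr2b (0.046) and Cd3e (-0.029), with median centring in Aif1 (-0.033) and Cd3e (-0.035), with knockout arrays 4 and 5 averaged in Cd68 (0.16) and Fcgr2b (0.079), and with the mean of probe sets in Trem2 (-0.0043) and in the r of Tyrobp with Trem2 (0.21, and 0.060 without 2 arrays). Without 1 array the change ranged over both signs in Adgre1 (-0.13 to 0.033), Cd68 (-0.32 to 0.16), Lyz2 (-0.42 to 0.0056), Msr1 (-0.026 to 0.16), Trem2 (-0.0010 to 0.13), Fcgr2b (-0.12 to 0.11) and S100a8 (-0.10 to 1.12). The cause was not tested. The bound for Hunk, recomputed without each wild-type array after seeing the data, was 1.17 to 1.67. Whether replicate numbers pair the arrays is not settled. Of 6 knockout arrays, 3 correlated best with the wild-type array of their own number, and the same-number r ran from -0.04 to 0.14. The replicate block called 0 members, as without it, which does not bear on pairing. Signal at background limits what can be said of T and B cells.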
